A study of Mus musculus with 6 samples.

Results

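The 62 genes described here encode parts of the axoneme, the microtubule core of the sperm tail and of motile cilia, or proteins that assemble it. They were taken by gene symbol alone. A gene was included when the array's annotation names it with a symbol starting with Dnah, Dnai, Dnal, Dnaaf, Cfap, Rsph or Tekt, or when it is Ccdc39, Ccdc40, Spag6, Spag16, Spag17 or Hydin. Probe sets naming more than 1 gene were set aside, and 62 of the 18193 genes with a probe set of their own met the rule. Together they have 104 probe sets, 33 genes having 1 and 29 having several. Where a gene has several, the probe set with the highest mean log2 signal over the 4 shRNA arrays stands for it, a choice that favours higher values in the shRNA groups when these are set against control. The members lie on 19 chromosomes, with at most 10 on any of them.

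RNA came from elongating spermatids, the haploid germ cells that are building a sperm tail, sorted as GFP+ cells from the testes of wild-type ICR male mice. The mice were transduced at 5 weeks of age and the cells were taken 1 week later. The shMiwi group received a lentiviral shRNA against Miwi (Piwil1, the PIWI protein that carries piRNAs in spermatids), the shCaf1 group a lentiviral shRNA against Caf1 (an older name of the deadenylase subunits encoded by Cnot7 and Cnot8), and the control group the empty pSilencer:GFP vector. Each group has 2 arrays, which the titles call biological replicates without saying whether they came from separate mice or pools of mice, so p-values measure the spread between these samples only. All 3 groups carry a lentiviral vector and went through the same sort, and no untransduced cells were analysed here. Each array gives 1 MAS5 signal per probe set, a linear intensity, and all arrays share a trimmed mean of 500. The number of arrays limits the precision.

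In a motile axoneme, outer and inner dynein arms attached to the outer microtubule doublets walk along the neighbouring doublet and bend the tail. Dynein heavy chains are the motors, intermediate and light chains hold each arm together, and assembly factors fold and join the chains in the cytoplasm before they enter the tail. Radial spokes link the doublets to the central pair of microtubules and relay signals between them, the Ccdc39 and Ccdc40 pair sets the spacing of arms and spokes along the doublet, and tektins are filaments inside the doublet wall. In mouse testis many axonemal genes are switched on in late meiosis and in round spermatids, and the tail is then built during spermiogenesis. Some members are better known from other motile cilia.

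Many ciliary genes carry binding sites for RFX factors in their promoters, so the windows from 250 bases before to 50 bases after the gene start (RefSeq, GRCm38.p6) were searched on both strands for the RFX half-site GTTGCC and for a longer site made of GTTNCC and, 2 bases on, its reverse complement GGNAAC, in which N is any base. The longer site can itself contain half-sites. Of the 62 members, 53 matched a promoter entry, with 59 windows. The half-site was found in 18 of these 59 windows (30.5%), against 12.5% of all 32851 promoter windows. The longer site was in 3 of 59 (5.08%), against 0.451% of all windows. Among the other motifs searched, the cAMP response element TGACGTCA was in 1.69% of member windows against 1.79% of all, the forkhead motif GTAAACA in 6.78% against 3.65%, and the MYB core AACTG in 62.7% against 44.8%. These shares describe the letters in the windows, and binding was not measured.

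The 6 windows below are shown because they carry the RFX letters in members that the results turn on or that hold the full site. The longer site stands in Dnaaf6 (chr1:31222589-31222888, plus strand), Cfap298 (chr16:90934800-90935099, minus strand) and Cfap20dc (chr14:8666241-8666540, minus strand). Dnah7a (chr1:53706735-53707034, minus strand), Dnaic2 (chr11:114727169-114727468, plus strand) and Tekt4 (chr17:25471340-25471639, plus strand) are the members called lower with shMiwi than with shCaf1 whose windows hold a half-site. Sequences run 5′ to 3′ on the gene's strand, and capitals mark the half-site, read on either strand, or the longer site.
Dnaaf6: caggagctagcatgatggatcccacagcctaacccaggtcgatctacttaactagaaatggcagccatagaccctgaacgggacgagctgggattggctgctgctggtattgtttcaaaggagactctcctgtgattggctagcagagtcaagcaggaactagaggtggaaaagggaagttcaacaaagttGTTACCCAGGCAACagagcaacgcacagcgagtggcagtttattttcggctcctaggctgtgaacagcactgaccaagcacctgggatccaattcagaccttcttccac
Cfap298: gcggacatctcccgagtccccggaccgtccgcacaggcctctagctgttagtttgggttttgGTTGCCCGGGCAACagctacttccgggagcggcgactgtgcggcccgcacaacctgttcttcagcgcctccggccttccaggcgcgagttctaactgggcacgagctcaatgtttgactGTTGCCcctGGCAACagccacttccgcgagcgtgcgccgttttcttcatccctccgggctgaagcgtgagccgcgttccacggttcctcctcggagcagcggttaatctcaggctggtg
Cfap20dc: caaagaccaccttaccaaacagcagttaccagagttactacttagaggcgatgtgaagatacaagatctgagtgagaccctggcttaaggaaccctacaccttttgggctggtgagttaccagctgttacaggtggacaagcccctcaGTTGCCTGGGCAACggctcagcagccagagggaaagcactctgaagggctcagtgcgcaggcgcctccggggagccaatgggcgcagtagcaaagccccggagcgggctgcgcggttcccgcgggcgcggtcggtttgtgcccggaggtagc
Dnah7a: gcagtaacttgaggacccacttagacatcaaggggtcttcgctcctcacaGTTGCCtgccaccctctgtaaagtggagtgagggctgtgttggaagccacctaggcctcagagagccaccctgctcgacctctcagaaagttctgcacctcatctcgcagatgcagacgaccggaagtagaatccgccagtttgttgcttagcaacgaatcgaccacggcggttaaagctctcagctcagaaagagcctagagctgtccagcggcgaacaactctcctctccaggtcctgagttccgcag
Dnaic2: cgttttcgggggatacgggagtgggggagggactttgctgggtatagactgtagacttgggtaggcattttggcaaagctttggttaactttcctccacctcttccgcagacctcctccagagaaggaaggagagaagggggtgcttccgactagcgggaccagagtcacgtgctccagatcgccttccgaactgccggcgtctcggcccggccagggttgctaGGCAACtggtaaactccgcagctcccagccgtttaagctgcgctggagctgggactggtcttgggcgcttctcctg
Tekt4: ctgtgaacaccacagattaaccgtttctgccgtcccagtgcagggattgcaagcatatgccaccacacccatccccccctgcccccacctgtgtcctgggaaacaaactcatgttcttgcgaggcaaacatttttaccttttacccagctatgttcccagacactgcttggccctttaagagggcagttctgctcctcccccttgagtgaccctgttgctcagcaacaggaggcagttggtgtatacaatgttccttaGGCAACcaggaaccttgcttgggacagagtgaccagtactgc
Dnaaf6 and Cfap298 encode factors of cytoplasmic dynein arm assembly, and Cfap20dc encodes a protein with a domain shared with Cfap20. The Cfap298 window holds 4 half-sites in all, counting those inside the longer site, and the Dnaaf6 window holds 1. Counted from the gene start, the first base of the half-site lay at -200 in Dnah7a, -26 in Dnaic2 and 9 in Tekt4.

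Replicates of the shRNA groups read nearly alike, and the control replicates did not. Over the 62 members, the 2 shMiwi arrays correlated at 0.988 and the 2 shCaf1 arrays at 0.996 on the log2 scale, whereas the 2 control arrays correlated at 0.155 (a description across genes that share each array). Over all tested probe sets these correlations were 0.982, 0.983 and 0.451. The hybridization controls are labelled RNA added at a fixed amount to each hybridization, and not to the sample RNA before labelling. They read 0.806 to 1.20 times the shRNA mean on the 4 shRNA arrays, but 82.3 times on control 1 and 16.2 times on control 2. Piwil1, the shMiwi target, read 9780 and 10392 with shMiwi, 21881 and 22442 with shCaf1, and 1445360 and 292542 in control. It was lower with shMiwi than with shCaf1 on both scales used here (-1.135 and, on that of the hybridization controls, -0.74, limma adjusted p = 0.00132 and 0.00101). Against control its difference with shMiwi was -6.01 (limma adjusted p = 0.00675), and on the hybridization scale it was -0.62 (limma adjusted p = 0.759). With shCaf1, which does not target it, Piwil1 also lay below control, at -4.87 (limma adjusted p = 0.0111). On the hybridization scale that difference was 0.117 (limma adjusted p = 0.954).

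The labels do not say which Caf1 gene the other shRNA targets, and neither gene was lower with shCaf1 than with shMiwi past the threshold on the deposited scale. Cnot7 read 4365 and 5012 with shMiwi, against 3633 and 4330 with shCaf1 (0.24 ± 0.13, limma adjusted p = 0.304), and on the hybridization scale it was higher with shMiwi (0.63, limma adjusted p = 0.0128). Cnot8 read 1190 and 1137 with shMiwi, against 1149 and 1052 with shCaf1 (0.08 ± 0.13, limma adjusted p = 0.761). Against control, at 2003570 and 188877, Cnot7 lay at -7.03 with shMiwi and -7.27 with shCaf1 (limma adjusted p = 0.00854 and 0.00886), and it did not pass on the hybridization scale (-1.645 and -2.28). Cnot8 was above control, at 147 and 285, in both groups (2.41 and 2.33, limma adjusted p = 0.00991 and 0.0116). On the deposited scale a loss of Caf1 particular to the shCaf1 arrays is therefore not shown.

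The labelled cell type was also checked. Prm1, a protamine that defines elongating spermatids, read 22731 and 22463 with shMiwi, 28335 and 33525 with shCaf1, and 66.1 and 188624 in control. On each shRNA array 15 or 16 of 16 elongating spermatid markers lay above the median signal of that array. So did all 10 pachytene spermatocyte markers, all 5 Leydig markers and 7 of 8 Sertoli markers. The markers therefore do not show elongating spermatids alone on these arrays. On control 1, where the median signal of all probe sets was 305, 10 of 16 elongating spermatid markers lay below that median, among them Prm2 at 110 and Tnp1 at 38.9, and 6 lay above it, up to Gapdhs at 1089. For single genes, differences from control use deposited values except where the hybridization scale is named. Counts and medians over the members are also given on a scale set by the hybridization controls, and the medians against each control array alone.

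**Figure D1:**
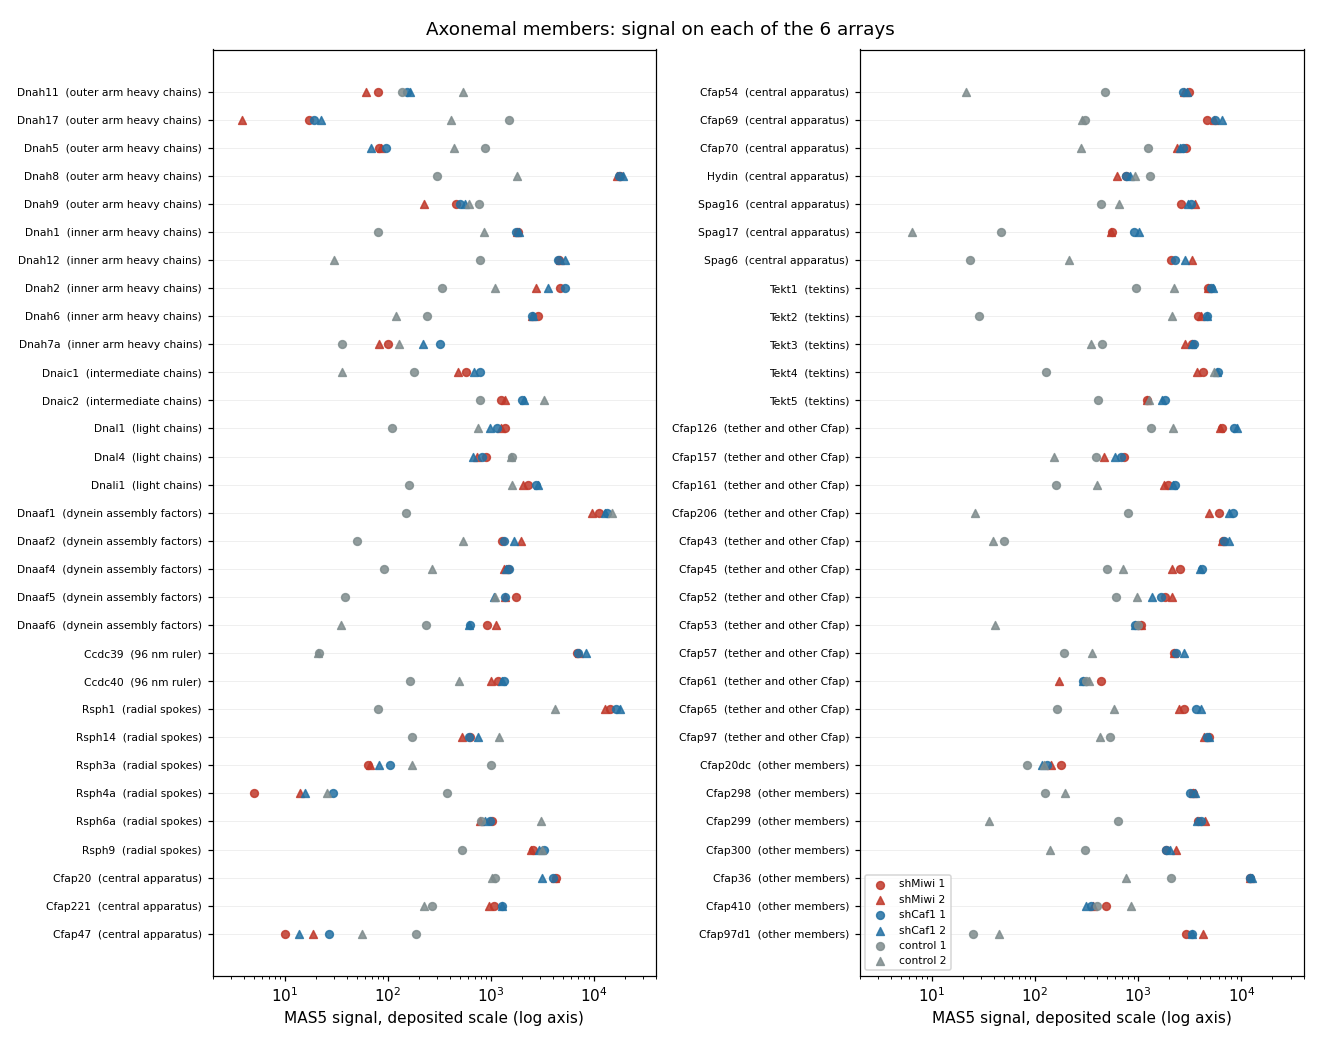
MAS5 signal (log axis, deposited scale) of each of the 62 members on each of the 6 arrays, with circles for replicate 1 and triangles for replicate 2, ordered by role. The 2 arrays of each shRNA group lie close together for most members, while the 2 grey control arrays often lie far apart, as for Dnaaf1 at 150 and 15092.

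The first comparison sets the shMiwi arrays against the shCaf1 arrays. On the deposited scale 39 of 59 tested axonemal genes were lower with shMiwi than with shCaf1, and 10 passed the test in that direction, while 13 of 59 were lower on the scale of the hybridization controls. They came from several parts of the axoneme: the dynein arm chains Dnah7a, Dnah11 and Dnaic2, the central apparatus gene Spag17, the tektins Tekt4 and Tekt5, and Cfap45, Cfap65, Cfap126 and Cfap206. The called falls ran from 0.470 to 1.39 on the log2 scale. The assembly factor Dnaaf6 was the 1 member called higher with shMiwi. Of the 62 members, 59 passed the filter on low signal, and on the deposited scale 11 of those 59 (18.6%) were called by limma at an adjusted p under 0.05, against a background of 7.09% of all 27022 tested probe sets. The background is 3.39% for lower calls and 3.7% for higher calls.

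Among the motors, Dnah7a, an inner arm heavy chain, showed the widest difference. It read 101 and 81.5 with shMiwi, against 318 and 219 with shCaf1, a log2 difference of -1.39 ± 0.25 (SE, limma adjusted p = 0.0201). Dnah11, an outer arm heavy chain, read 79.8 and 61.3 with shMiwi, against 154 and 166 with shCaf1 (-1.03 ± 0.25, limma adjusted p = 0.0453). The filter stood at a signal of 42.8, not far under these values, and in both genes the 2 groups do not overlap. The Dnaic2 gene, now also called Dnai2, encodes an outer arm intermediate chain. It read 1242 and 1380.0 with shMiwi, against 2019 and 2083 with shCaf1 (-0.64 ± 0.13, limma adjusted p = 0.0261). Its partner intermediate chain gene Dnaic1 (Dnai1) read 575 and 481 with shMiwi, against 788 and 689 with shCaf1, groups that do not overlap, with a difference of -0.475 that did not pass (limma adjusted p = 0.115).

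The remaining heavy chains did not pass this test. Dnah8, the testis outer arm heavy chain, read 17719 and 16679 with shMiwi, against 17378 and 18876 with shCaf1, so that the groups overlap. Dnah9, another outer arm heavy chain, read 457 and 225.0 with shMiwi, against 497 and 561 with shCaf1 (-0.69 ± 0.285, limma adjusted p = 0.178), with no overlap but a wide gap between the shMiwi replicates. Dnah5, an outer arm heavy chain of airway cilia, read 81.6 and 85.7 with shMiwi, against 95.3 and 68.7 with shCaf1, and overlapped. The inner arm chains Dnah1, Dnah2, Dnah6 and Dnah12 had differences between -0.28 and 0.075, and each overlapped. Dnah1 differed by 0.00 and Dnah2 by -0.28. The light chain genes Dnal1 and Dnal4 had differences of 0.29 and 0.12, with limma adjusted p-values of 0.243 and 0.715.

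The central apparatus gene Spag17, which encodes a central pair projection protein, read 557 and 544 with shMiwi, against 917 and 1022 with shCaf1 (-0.80 ± 0.145, limma adjusted p = 0.0205). It was the only one of the 9 tested central apparatus members to pass, and 4 of the 9 lay below shCaf1 without overlap (background 25%). Hydin, which encodes another protein of a central pair projection, read 753 and 618 with shMiwi, against 765 and 833 with shCaf1, a difference of -0.22 that did not pass (limma adjusted p = 0.429). Spag6, a central pair scaffold gene, read 2093 and 3293 with shMiwi, against 2268 and 2861 with shCaf1, and overlapped. Cfap20 was counted in this group, although its product is best known from the inner junction of the doublet.

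All 5 tektins lay below shCaf1 on both shMiwi arrays on the deposited scale (background 25%), and 2 of them passed (background 3.39% lower). On the hybridization scale Tekt1, Tekt2 and Tekt3 had differences above 0, where 15.7% of all tested probe sets lay below 0. Tekt4 read 4259 and 3752 with shMiwi, against 5887 and 5754 with shCaf1 (-0.54 ± 0.11, limma adjusted p = 0.0305). Tekt5 read 1217 and 1218 with shMiwi, against 1813 and 1715 with shCaf1 (-0.53 ± 0.12, limma adjusted p = 0.0419). Tekt1 and Tekt2 had smaller differences, -0.14 and -0.23, that did not pass. Over the members as a whole, 28 of 59 (47.5%) lay lower on both shMiwi arrays than on both shCaf1 arrays, where 25% of all tested probe sets did so. In the other direction it was 8 of 59 (13.6%), against 29.5% of all probe sets.

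Of the 12 tether and other Cfap members, 4 were called lower (background 3.39%) and 10 had a difference below 0 (background 47.6%). On the hybridization scale 4 of the 12 had a difference below 0 (background 15.7%). Cfap45, which lies inside the doublet microtubules, read 2540 and 2122 with shMiwi, against 4140 and 3981 with shCaf1 (-0.80 ± 0.13, limma adjusted p = 0.0129). Cfap206, whose Tetrahymena homologue anchors radial spokes, read 6071 and 4864 with shMiwi, against 8326 and 7611 with shCaf1 (-0.55 ± 0.13, limma adjusted p = 0.0419). The groups do not overlap in either gene. Cfap65, a gene needed for sperm tail formation, read 2780 and 2492 with shMiwi, against 3608 and 4085 with shCaf1 (-0.54 ± 0.12, limma adjusted p = 0.0384). Cfap126, which encodes a protein of the ciliary microtubules, read 6476 and 6233 with shMiwi, against 8494 and 9134 with shCaf1 (-0.47 ± 0.10, limma adjusted p = 0.0343). Within this group 7 members lay below shCaf1 without overlap and 2 lay above it, where 25% and 29.5% of all tested probe sets did so. Cfap52, a protein inside the doublet, was 1 of the 2 above, at 1823 and 2141 with shMiwi against 1674 and 1373 with shCaf1 (0.38 ± 0.15, limma adjusted p = 0.155).

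Dnaaf6, a cytoplasmic dynein arm assembly factor, was the called rise. It read 926 and 1129 with shMiwi, against 628 and 618.0 with shCaf1 (0.70 ± 0.15, limma adjusted p = 0.0343), with no overlap. The other assembly factors did not move in a common direction: Dnaaf1, a leucine-rich repeat assembly factor, differed by -0.33 and Dnaaf2, a chaperone adaptor, by 0.09, with limma adjusted p-values of 0.101 and 0.835. The ruler genes Ccdc39 and Ccdc40 differed by -0.14 and -0.27 (limma adjusted p = 0.519 and 0.267). All 5 tested radial spoke members had a difference below 0 on the deposited scale, from -0.41 to -0.05 (background 47.6%). On the hybridization scale 1 of 5 was below 0 (background 15.7%). On the deposited scale 3 lay below shCaf1 without overlap (background 25%). None of the 5 was called by limma, and 2 had an unadjusted p under 0.05. Rsph1, a spoke head gene, read 14390 and 12878 with shMiwi, against 16452 and 18001 with shCaf1 (-0.34 ± 0.11, limma adjusted p = 0.0882). Rsph3a, a spoke stalk gene with a low signal, read 64.2 and 66.9 with shMiwi, against 104 and 82.0 with shCaf1 (-0.41 ± 0.28, limma adjusted p = 0.402).

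**Figure D2:**
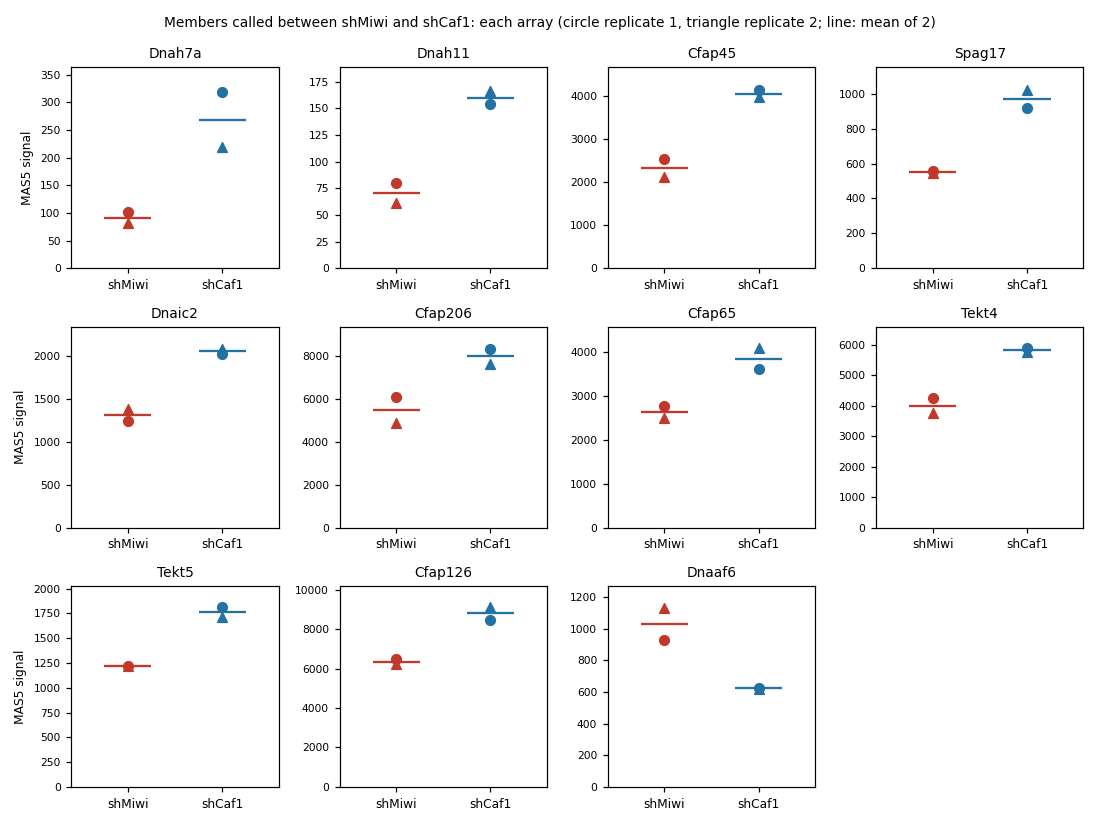
MAS5 signal (linear axis from 0) of the 11 members called between the shRNA groups, with shMiwi on the left and shCaf1 on the right of each panel, a point per array and a line at the mean of 2 arrays. In 10 panels both shMiwi arrays lie below both shCaf1 arrays, from Dnah7a (101 and 81.5 against 318 and 219) to Cfap126, and in the Dnaaf6 panel they lie above.

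**Figure D3:**
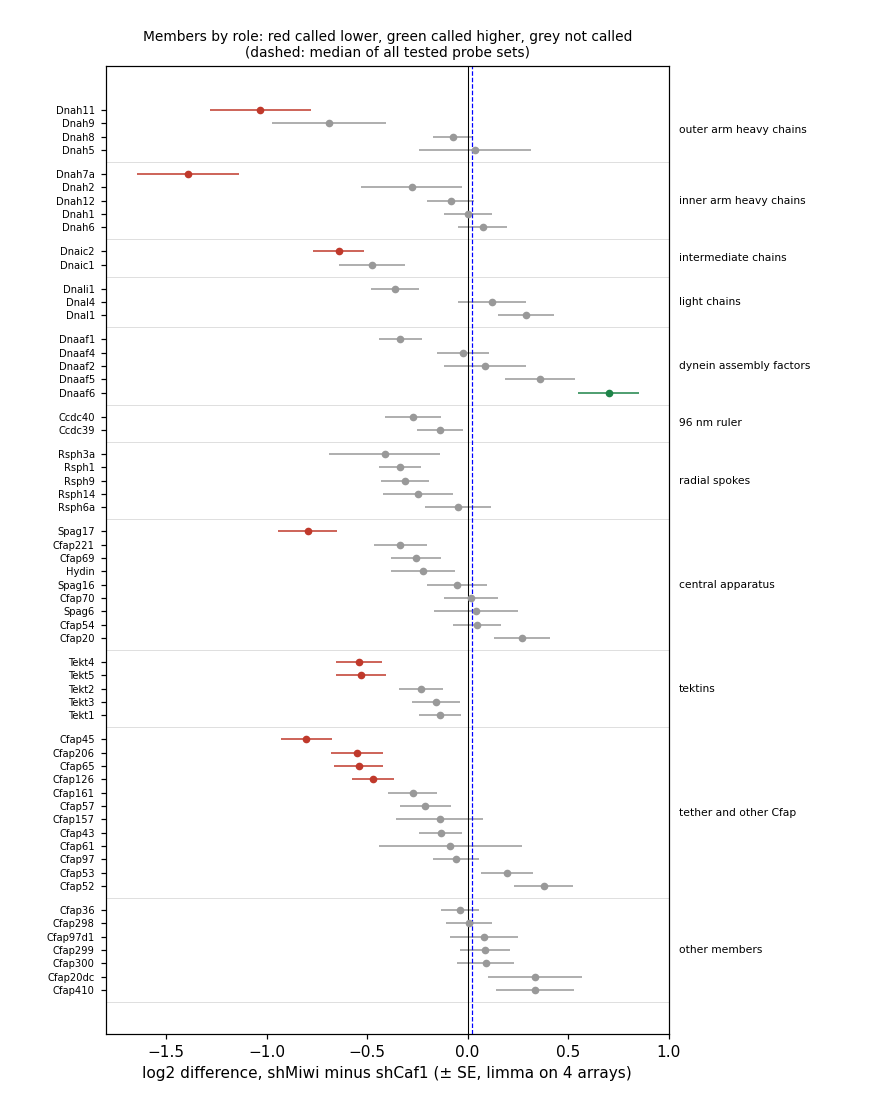
Log2 difference, shMiwi minus shCaf1, of the 59 tested members, grouped by role, with bars of 1 SE from limma on 4 arrays. On this deposited scale 39 of 59 points lie left of 0, where 47.6% of all tested probe sets do. On the hybridization scale it is 13 of 59, where 15.7% of all do. The dashed line marks the median of all tested probe sets, 0.02.

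The members' median difference was -0.14 (quartiles -0.336 and 0.045), where the median of all tested probe sets was 0.02 (quartiles -0.235 and 0.285). How far below 0 they lay depended on the scale. Scaled to the hybridization controls, the median of all probe sets moved to 0.39 and that of the members to 0.26. On that scale 7 members were called higher and 1 lower, against backgrounds of 26.5% and 0.966%. Of the 11 calls only Dnah7a (-1.035) and Dnaaf6 (1.09) were shared between the scales, and the other 9 called falls still lay below 0, from -0.69 in Dnah11 to -0.07 in Cfap126. The 6 calls made only on the hybridization scale were Cfap20, Cfap52, Cfap53, Cfap410, Dnaaf5 and Dnal1, all higher, at 0.59 to 0.77. Without the intensity trend limma called 0 members (12 at an unadjusted p under 0.05), and leaving out 1 array gave 0 without shCaf1 1, 1 without shCaf1 2, 14 without shMiwi 1 and 5 without shMiwi 2. In those 4 fits 2.57%, 0.973%, 12.4% and 7.04% of all probe sets were called.

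On the deposited scale the median differences of elongating and round spermatid markers were below 0, as was that of the axonemal genes. Of 16 markers of elongating spermatids, 13 were called lower with shMiwi than with shCaf1 and none higher, with a median of -0.71. Their summed signal was 162000 and 151700 with shMiwi, against 231800 and 251900 with shCaf1, and it was 5310 and 743500 in control. Of 10 round spermatid markers, 3 were called lower (median -0.30). None of 10 pachytene spermatocyte markers was called by limma, 5 having an unadjusted p under 0.05 (median 0.20). None of 8 spermatogonial markers was called (2 at an unadjusted p under 0.05, median 0.10). Among cells outside the germ line, Wt1 of Sertoli cells and Cyp11a1 of Leydig cells were called higher, 1 of 7 and 1 of 5 tested markers of their lists. Deup1 was the called one of 5 markers of multiciliated cells, which share the axonemal programme, and was lower (-0.64). None of 6 macrophage and 5 endothelial markers was called by limma, with 2 and 0 at an unadjusted p under 0.05. The part of these markers in the axonemal differences was not tested, and in sorted bulk samples fewer cells of a stage and less RNA per cell cannot be told apart. On the hybridization scale the median of the elongating list was -0.31, that of the round list 0.10 and that of the pachytene list 0.60. The axonemal members' median on that scale was 0.26, on the other side of 0 from the elongating list. The median of all tested probe sets there was 0.39.

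**Figure D4:**
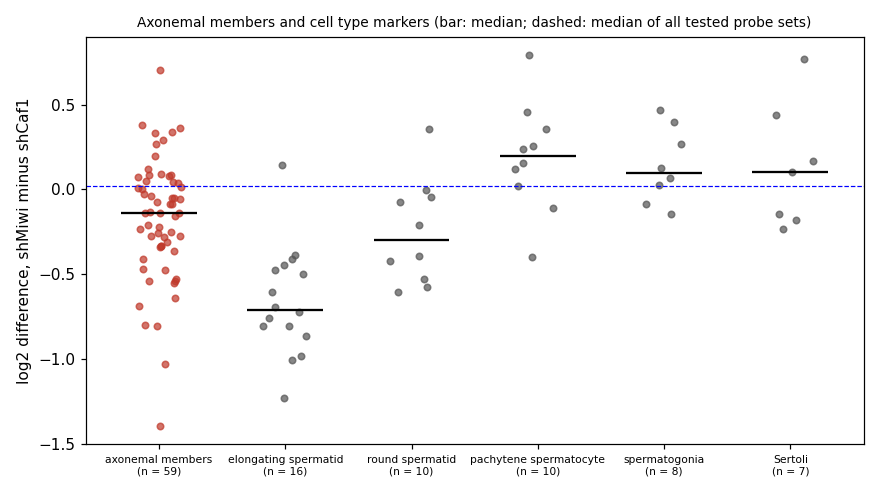
Log2 difference, shMiwi minus shCaf1, of the 59 axonemal members and of 5 lists of cell type markers, a point per gene and a bar at the median. The axonemal median (-0.14) lies between that of elongating spermatid markers (-0.71) and that of pachytene markers (0.20), and the dashed line is the median of all tested probe sets.

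Different probe sets of the same gene did not always read the same difference. Of the 42 further probe sets of 29 members, 28 were tested between the shRNA groups, 13 with the sign of the chosen probe set and 15 with the opposite sign. Of these, 2 were called, both higher with shMiwi: a further probe set of Dnah8 (0.725, limma adjusted p = 0.0386) and one of Cfap20 (0.44, limma adjusted p = 0.0466). The chosen Dnah8 probe set differed by -0.075 and the chosen Cfap20 probe set by 0.27. Against control 26 of the further probe sets were tested, 19 with the sign of the chosen one and 7 with the opposite sign, and 11 were called higher in each comparison, 3 lower with shMiwi and 2 lower with shCaf1. The lower calls were in Cfap57, Dnaaf5 and, with shMiwi only, Dnaaf1, whose chosen probe sets had differences above 0.

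Set against the empty vector, most axonemal genes read higher in both shRNA groups on the deposited scale. For genes with several probe sets the one highest on the shRNA arrays was used, which favours higher calls here. The background probe sets were not chosen in this way, so the shares are not fully alike. With shMiwi 32 of 59 tested members were called higher and 1 lower (background 43.2% in all, 16.9% higher and 26.4% lower). With shCaf1 30 were called higher and 1 lower (background 41.5% in all, 15.5% higher and 26% lower). The members' median log2 difference from control was 2.48 with shMiwi and 2.65 with shCaf1, where the medians of all tested probe sets were -0.20 and -0.25. The 2 comparisons share their control arrays, and 30 members were called higher in both. Summed over the members, the signal was 0.585% and 0.561% of the array total with shMiwi, 0.617% and 0.614% with shCaf1, and 0.0393% and 0.118% in control.

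The ruler gene Ccdc39 stood farthest above control. It read 6785 and 7185 with shMiwi, 7058 and 8353 with shCaf1, and 21.6 and 21.2 in control. Its log2 difference was 7.55 ± 0.335 with shMiwi (limma adjusted p = 0.00374) and 7.69 with shCaf1. Its partner Ccdc40 read 1163 and 998 with shMiwi, 1336 and 1274 with shCaf1, and 164 and 495 in control (1.85 and 2.12, limma adjusted p = 0.0485 and 0.0340). Cfap43, a gene needed for a normal sperm axoneme, read 6656 and 6425 with shMiwi, 6791 and 7570 with shCaf1, and 50.1 and 38.6 in control (6.77 and 6.90). Cfap97d1, a gene needed for sperm tail function in mouse, read 2919 and 4225 with shMiwi, 3337 and 3302 with shCaf1, and 25.2 and 44.4 in control (6.14 and 6.06). In the chosen probe sets of Ccdc39, Cfap43 and Cfap97d1 both control arrays read low, and every shRNA array lies above them. A further Cfap43 probe set went the other way without passing. It read 215 and 173 with shMiwi, 219 and 228 with shCaf1, and 687 and 357 in control (-1.294 and -1.1).

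The motor genes did not all stand on the same side of control. Dnah8 read 17719 and 16679 with shMiwi, 17378 and 18876 with shCaf1, and 298 and 1794 in control (4.51 and 4.59, limma adjusted p = 0.0129 and 0.0132). The inner arm chain Dnah12 read 4528 and 4625 with shMiwi, 4484 and 5253 with shCaf1, and 780 and 30.2 in control (4.58 and 4.67). Inner arm members Dnah2 and Dnah6 were called higher as well, while Dnah1 missed the threshold (2.65 in both groups, limma adjusted p = 0.0940 and 0.0965). Dnah5 was the called fall, at 81.6 and 85.7 with shMiwi, 95.3 and 68.7 with shCaf1, and 873 and 442.0 in control (-2.68 and -2.72, limma adjusted p = 0.00963 and 0.0101). On the hybridization scale this difference was positive (1.725 and 1.355), where the medians of all tested probe sets were 3.58 and 3.15. Dnah9 and Dnah11 lay at -1.06 and -1.75 with shMiwi and at -0.37 and -0.72 with shCaf1 on the deposited scale, and did not pass. Dnah17, the other outer arm heavy chain known from sperm, did not pass the filter, at 17.4 and 3.84 with shMiwi, 19.3 and 22.4 with shCaf1, and 1487 and 414 in control. Cfap47, a central apparatus gene, and Rsph4a, a spoke head gene, did not pass it either. Cfap47 read 10.05 and 18.99 with shMiwi, 26.8 and 13.8 with shCaf1, and 188 and 56.0 in control. Rsph4a read 5.04 and 14.1 with shMiwi, 29.2 and 15.9 with shCaf1, and 377 and 25.9 in control. On this deposited scale all 3 lay lower on every shRNA array than on control 1. On the hybridization scale Cfap47 and Rsph4a lay above control 1 on every shRNA array, Cfap47 at 10.7 and 23.6 with shMiwi and 24.4 and 11.5 with shCaf1, against 2.29 and 3.45 in control, and Rsph4a at 5.36 and 17.5 with shMiwi and 26.6 and 13.2 with shCaf1, against 4.585 and 1.59 in control.

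Other dynein arm parts varied. Dnaic1 was called higher (2.42 and 2.895), and Dnaic2 was not (-0.29 and 0.35), reading 789 and 3263 on the control arrays. None of the 3 light chains was called by limma, and 1 had an unadjusted p under 0.05 in each comparison. That one, Dnal4, read 895 and 726 with shMiwi, 814 and 674 with shCaf1, and 1589 and 1560 in control (-0.95 and -1.07, limma adjusted p = 0.0759 and 0.0568). Among assembly factors, Dnaaf4 was called higher in both comparisons (3.03 and 3.06). Dnaaf6 was called higher with shMiwi (3.20 ± 0.78, limma adjusted p = 0.0250), and with shCaf1 its difference of 2.50 missed the threshold (limma adjusted p = 0.0528).

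In the central apparatus 7 of 9 tested members were called higher in each comparison (background 16.9% with shMiwi and 15.5% with shCaf1). Spag6 read 2093 and 3293 with shMiwi, 2268 and 2861 with shCaf1, and 23.3 and 212 in control (4.80 and 4.76). Spag17 was at 46.9 and 6.41 in control, with differences of 3.915 and 4.71. Hydin went the other way on this scale, at -0.69 and -0.465, and did not pass. Radial spokes had no called member in either comparison by limma, with 2 and 1 of 5 at an unadjusted p under 0.05. Rsph1 differed by 4.41 ± 1.72 with shMiwi (limma adjusted p = 0.0923), its control arrays reading 81.1 and 4189. Rsph3a read 1006 and 171 in control and differed by -2.42 and -2.01 (limma adjusted p = 0.0672 and 0.110).

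Tektins lay above both control arrays in 3 of 5 members with shMiwi and in 5 of 5 with shCaf1 (background 30.6% and 30%). In each comparison 2 were called, both higher (background 16.9% and 15.5% higher, 43.2% and 41.5% in all). Tekt1 was called, at 4692 and 4749 with shMiwi, 5099 and 5294 with shCaf1, and 955 and 2237 in control (1.68 and 1.82). Tekt2 differed by 3.68 ± 1.755 with shMiwi without passing (limma adjusted p = 0.148), with control arrays at 28.7 and 2127. Among the 12 tether and other Cfap members, 9 were called higher with shMiwi and 8 with shCaf1 (background 16.9% and 15.5%). Cfap206 differed by 4.88 ± 1.36 and 5.43 ± 1.36 (limma adjusted p = 0.0373 and 0.0284), its control arrays reading 794 and 26.1. Cfap299 was called higher too (4.49 and 4.40).

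The control arrays disagreed over many members. Control 2 was over 4-fold above control 1 in 14 of the 59, among them Dnaaf1 (150 and 15092 on controls 1 and 2), Rsph1, Tekt4 (128 and 5378) and Tekt2, and control 1 was over 4-fold above control 2 in 8, among them Dnah12 and Cfap206. The median gap between replicates was 0.21 with shMiwi, 0.12 with shCaf1 and 1.49 in control on the log2 scale. Over all tested probe sets it was 0.22, 0.185 and 1.28, so the wide control gap is not particular to the members. Against control 1 alone the members' median was 2.60 with shMiwi and 2.71 with shCaf1, and against control 2 alone it was 1.70 and 2.02. The all-probe-set medians lay between -0.37 and -0.31 in these 4 comparisons. Each of the 33 members called with shMiwi, and each of the 31 called with shCaf1, was called the same way with either control array left out, when 52 and 54 of 59 members were called with shMiwi (without controls 1 and 2) and 50 and 52 with shCaf1. Of all probe sets, 79.5% and 83.7% were called in these fits with shMiwi, and 78.1% and 83.7% with shCaf1. In those fits the lone control array is assumed to vary like the shRNA arrays. With 1 shMiwi array left out limma called 0 members against control (27 at an unadjusted p under 0.05), and with 1 shCaf1 array left out it called 0 for shCaf1 (26 and 28 at an unadjusted p under 0.05). Leaving out an array of the other shRNA group left 20 calls for shMiwi (26.7% and 26.3% of all probe sets) and 23 for shCaf1 (24% and 23.9%).

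On the scale of the hybridization controls the called share could not set the members apart. There 59 of 59 were called higher in both comparisons, but so were 94% and 91.5% of all tested probe sets. The members' medians were 6.12 and 5.99, against 3.58 and 3.15 for all probe sets. These medians could not set the members apart either. After this scaling most members' signals on control 1 lay below the constant added before log2. Ccdc39 read 0.262 on control 1 and 1.305 on control 2, and Dnah8 read 3.623 and 110.5. Where the control signal is that low, the difference mostly follows the shRNA signal. Where a gene had several probe sets, the one used was chosen for a high shRNA signal. All 59 members also lay above both control arrays on this scale, as did 97% of all probe sets with shMiwi and 95.5% with shCaf1. On the deposited scale 43 members lay above both control arrays and 6 below both with shMiwi (background 30.6% above and 40.3% below). With shCaf1 it was 43 above and 7 below (background 30% and 40.9%), and 40 members lay above in both groups.

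Markers of round spermatids and pachytene spermatocytes stood above control as well on the deposited scale. Of 10 round spermatid markers 7 were called higher with shMiwi and 8 with shCaf1 (medians 4.65 and 5.00), and of 10 pachytene spermatocyte markers 7 and 7 (medians 4.325 and 3.99). Of 16 elongating spermatid markers 1 was called higher and 1 lower with shMiwi, and 2 and 1 with shCaf1, their summed signal differing between controls 1 and 2 as given above. Sertoli markers had 2 called higher and 3 lower of 8 with shMiwi, and 1 and 3 with shCaf1. Of 5 Leydig markers 3 were called higher with shMiwi and 2 with shCaf1 (medians 2.77 and 2.72), and none lower. Of 6 macrophage markers 3 and 2 were called higher (medians 0.60 and 0.41), and none lower. Spermatogonial markers had 2 called higher and 1 lower of 8 in each comparison, and multiciliated markers 1 and 1 of 5. Of 4 tested endothelial markers 2 were called lower with shMiwi and 3 with shCaf1. The markers that rose over control were therefore not only those of germ cells. The part of these cell types in the axonemal differences from control was not tested.

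**Figure D5:**
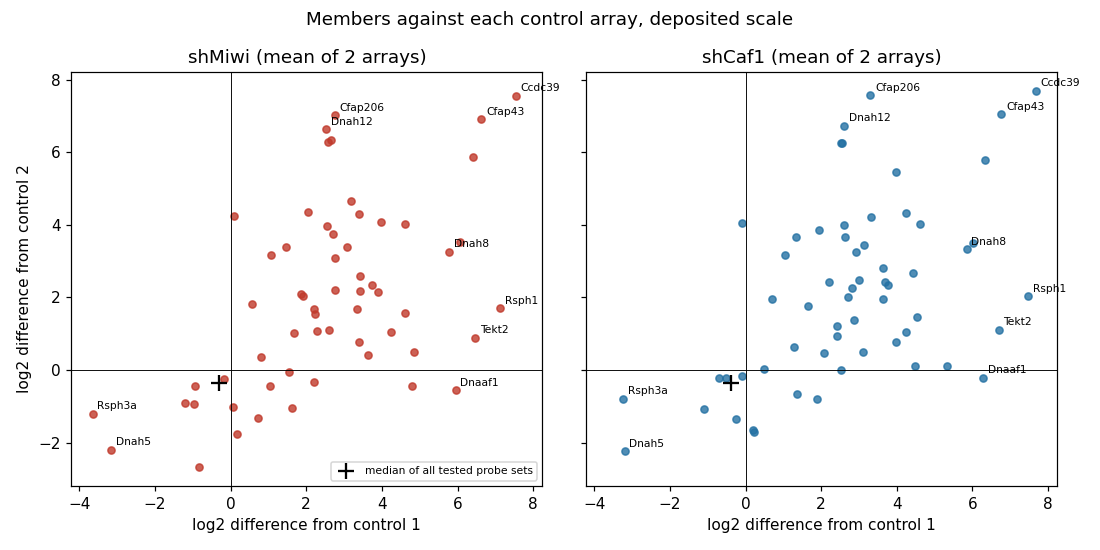
Log2 difference of the 59 tested members from control 1 (horizontal axis) and from control 2 (vertical axis), for shMiwi on the left and shCaf1 on the right, each the mean of 2 arrays on the deposited scale, with a cross at the median of all tested probe sets. Ccdc39 and Cfap43 lie high against both control arrays, while Dnaaf1 and Tekt2 lie high against control 1 only and Cfap206 and Dnah12 lie higher against control 2.

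Genes of the same machinery under other symbols were counted from 5 further lists. Of 73 such genes, 64 were on the array and tested. Between shMiwi and shCaf1, 2 were called higher and 3 lower, a share close to the background of 7.09% of all probe sets. Spag1, a dynein assembly factor gene, rose, at 1869 and 2181 with shMiwi against 1152 and 1222 with shCaf1 (0.76 ± 0.13, limma adjusted p = 0.0187). Mybl1, which encodes the A-MYB regulator of meiotic genes, read 1721 and 2408 with shMiwi, against 1162 and 1170 with shCaf1 (0.80 ± 0.17, limma adjusted p = 0.0311). The called falls were Nme8, a thioredoxin-domain gene tied to dynein arms (-0.63), Ropn1, a fibrous sheath and spoke-associated gene (-0.49), and the shared dynein light chain gene Dynll2 (-0.38, but 0.02 on the hybridization scale), with limma adjusted p-values of 0.0305, 0.0251 and 0.0462. The 9 measured genes of the nexin-dynein regulatory complex, which ties neighbouring doublets together, had a median of -0.285, none was called by limma and 3 had an unadjusted p under 0.05.

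Against control, 27 of the 64 were called higher and 2 lower with shMiwi, and 28 higher and 2 lower with shCaf1, against backgrounds of 16.9% higher and 26.4% lower with shMiwi and 15.5% and 26% with shCaf1. By list and with shMiwi, 3 of 9 nexin-dynein genes, 6 of 14 assembly and docking genes, 3 of 10 dynein chains, 9 of 22 genes of the axonemal microtubules and other tail parts, and 6 of 9 transcription regulators were called higher. With shCaf1 these counts were 4, 7, 3, 9 and 5. Enkur, which encodes an adaptor inside the doublet, rose by 5.24 with shMiwi and 5.43 with shCaf1, and Drc1, a nexin-dynein base gene, by 5.03 and 5.53. Rfx2, a regulator of spermatid ciliary genes in mouse, rose by 1.92 and 2.07, at 826 and 598 with shMiwi, 823 and 746 with shCaf1, and 130 and 233 in control. Foxj1, a regulator of motile cilia, read 474 and 301 with shMiwi, 528 and 424 with shCaf1, and 219 and 1441 in control, and did not pass. The 2 falls were Dynlrb1 and Tctex1d4, dynein light chain genes, at -2.07 and -2.67 with shMiwi. Both lay above control on the hybridization scale (2.89 and 1.125), where the median of all tested probe sets was 3.58.

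The half-site stood in 3 of 11 windows of members called lower with shMiwi (27.3%) and in 14 of 45 windows of tested members with no call (31.1%). The Dnaaf6 window, the only one of a member called higher, holds the longer site shown above.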

How the data were processed

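Sorted elongating spermatids of 3 groups with 2 arrays each were profiled on Affymetrix mouse arrays. The authors' deposited values are signal intensities on a linear scale, 1 per probe set and array for 45101 probe sets, and MAS5 is named in the submitters' processing notes. All arrays share a 2% trimmed mean of 500, so a weak array is multiplied up. The MAS5 version and genome build were not given in the sources used here, and no detection calls were used. Groups and replicate numbers come from the titles.

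A constant of 16 was added before log2, which understates changes at low signal. After dropping the 64 AFFX probe sets, those with a mean log2 in the lowest 40% were filtered out, using the 4 shRNA arrays for shMiwi against shCaf1 and all 6 arrays against control. This left 27022 each time. Differences were tested with limma 3.58.1 (R 4.3.3, with an intensity trend in eBayes) on the 4 shRNA arrays (2 residual degrees of freedom) or in a single model of all 6 (3 residual degrees of freedom). P-values were adjusted by Benjamini-Hochberg over every tested probe set, with calls at 0.05. The fit was first tested on simulated data. For the second scale, each array was divided by the geometric mean of 18 hybridization control probe sets. Gene names come from the platform annotation, and all 62 members matched RefSeq by gene identifier. Alternatives were other added constants, filters, scalings, probe set choices, no intensity trend, other arrays in the fit, the replicate number as a block, and each array left out.

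The members, role lists, marker lists and motifs were chosen with earlier results of these data known. Members are named with values when called between the shRNA groups, when among the 4 largest uncalled differences there without overlap, when among the 8 largest called differences from control in each direction, or when among the first 2 measured of a role list, which gave 34. A further rule, members below both control arrays on both scales, named none. The other members are counted, or were named after their values were seen.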

Additional observations from a re-analysis of the deposited data

Results flagged for a closer look

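Probe sets that name more than 1 gene were outside the comparisons above, and 2 of them that carry member-family symbols read above both control arrays on every shRNA array. The probe set naming Rsph3b and Rsph3a, spoke stalk genes, read 11658.5 and 12023 with shMiwi, 11832 and 11681 with shCaf1, and 843 and 1615 in control. Its log2 difference from control was 3.32 with shMiwi and 3.31 with shCaf1 (limma adjusted p = 0.00660 and 0.00748), where the probe set of Rsph3a alone lay below control. The probe set naming Dnah7c and Dnah7b, inner arm heavy chains, read 11664 and 11446 with shMiwi, 10721.7 and 12277 with shCaf1, and 558 and 847 in control (4.04 and 4.03, limma adjusted p = 0.00449 and 0.00545). Between the shRNA groups both differed by 0.01, with limma adjusted p-values of 0.961 and 0.965, whereas the probe set of Dnah7a alone was called lower with shMiwi. The genes behind these signals cannot be told apart.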

How the results depend on the processing

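For shMiwi against shCaf1 the 11 called members became 4 with median centring and 2 with no filter. In these fits 4.13% and 1.26% of all probe sets were called, against 7.09% in the main fit. Without the intensity trend 0 were called (12 at an unadjusted p under 0.05), with 0.06% of all probe sets. A single fit over all 6 arrays called 0 (0 at an unadjusted p under 0.05) and no probe set at all. On the hybridization control scale it was 8, with 7 higher and 1 lower, against backgrounds of 26.5% and 0.966%. The direction of the count turned there, but the members' median of 0.26 stayed below that of all tested probe sets, 0.39. Leaving out 1 array gave 0 to 14 (16 at an unadjusted p under 0.05 for the 0, without shCaf1 replicate 1). In 7 other alternatives with all arrays it was 9 to 12. There 4.7% to 8.2% of all probe sets were called (of all genes, where probe sets were averaged). Over 17 alternatives Dnah7a passed in 13, Cfap45 in 12 and Spag17 in 11, and the other called members in 8 to 10. The replicate block gave 18, but same-numbered samples share only a number: with 2 per group, deviations correlated at 0.192 between the shRNA groups, and at 0.004 and 0.061 between each and control. For shMiwi against control the 33 became 59 on the hybridization scale, 20 with only the 4 arrays compared and 0 to 54 with 1 array left out, and the block gave 30. For shCaf1 against control the 31 became 59 on that scale, 47 with median centring and 0 to 52 with 1 array left out, and the block gave 29. Of all tested probe sets, 94% with shMiwi and 91.5% with shCaf1 were called higher than control on that scale. For median centring, only the 4 arrays and the block no such share is given, so those counts against control are not read as gains or losses. On the hybridization scale 13 named differences from control turned positive: Dnah5 (1.725 with shMiwi and 1.355 with shCaf1), Dnah9 (3.377 and 3.685), Dnah11 (1.714 and 2.402), Dnal4 (3.903 and 3.393), Hydin (4.042 and 3.875), Rsph3a (1.739 and 1.820) and, with shMiwi only, Dnaic2 (4.350). Median centring turned Hydin (1.047 and 1.253) and, with shCaf1, Dnah9 (1.324). Leaving out 1 array gave Dnaaf1 (-0.553 to 5.956), Tekt4 (-0.426 to 4.798) and Dnaic2 (-1.307 to 0.720) with shMiwi and Dnaic2 (-0.666 to 1.361) with shCaf1 both signs against control, as the control arrays differ there. The other turns came with a change of scale. The hybridization scale divides control 1 by 82.3 and control 2 by 16.2, which raises differences from control in general. On it 0.4996% of all tested probe sets lay below 0 with shMiwi and 0.5366% with shCaf1. Median signals were also higher in control (305 and 216) than on the shRNA arrays (70.7 to 79.9), so median centring raises these differences too.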
